A study of Homo sapiens with 44 samples.

Results

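PHGDH, PSAT1, PSPH, SHMT2, MTHFD2, ALDH1L2, ASNS, PYCR1, ALDH18A1 and CTH encode enzymes of serine, folate, asparagine, proline and cysteine synthesis. They were taken as a list of 10 gene symbols out of the 19923 genes in the count tables, and each symbol was found in every table. The list was chosen from earlier results on the same libraries, in which genes of the amino acid response had lower input levels after treatment, above all in Kelly cells at 6 days. The change of their input level, and the change of RIP over input that contains it, are therefore given as a description, with standard errors. Calls of the fit over all genes are counted beside the share of all genes called, and support nothing about the list.

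These enzymes supply amino acids and methyl-group carriers to growing cells. PHGDH, PSAT1 and PSPH turn a glycolytic intermediate into serine in 3 steps, and the mitochondrial enzymes SHMT2, MTHFD2 and ALDH1L2 pass the carbon unit of serine through the folate pool. ASNS makes asparagine from aspartate, ALDH18A1 and PYCR1 begin and end the route from glutamate to proline, and CTH releases cysteine in the transsulfuration pathway. Many of these genes are known targets of the transcription factor ATF4, which is made when amino acids are scarce or proteins misfold, and high serine synthesis is known from neuroblastomas with amplified MYCN.

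The series held 44 libraries in 16 groups from 2 human neuroblastoma cell lines, Kelly and NGP, both labelled WT and as carrying amplified MYCN. STM2457 inhibits METTL3, the methyltransferase that places N6-methyladenosine (m6A) on mRNA. Cultures were given either DMSO or STM2457 at 8 µM, Kelly for 1 day or 6 days and NGP for 6 days. Nude mice with subcutaneous Kelly tumours were dosed daily for 14 days, with STM2457 at 50 mg/kg or with vehicle (labelled DMSO). Every group had input libraries, which are RNA-seq of the fragmented poly(A) RNA, and RIP libraries of the fragments that an m6A antibody pulled down, with 3 libraries per group in culture and 2 in the xenograft. Each cell line stands for 1 donor tumour, nude mice lack T cells, and the tumour stroma is murine. The labels do not say whether replicates came from separate cultures or animals, so p-values measure the spread between these libraries only.

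The inputs of Kelly cells held 24.07 to 26.56 M counted fragments (1 day) and 5.77 to 31.49 M (6 days), those of NGP cells 5.49 to 11.6 M and those of tumours 2.14 to 7.27 M. The RIP libraries held 4.68 to 36.5 M. All 7 neuroblastoma markers reached a mean of 1 CPM (a count scaled to its library's total) in each input group except NGP with DMSO, where 6 did. The summed level of 12 human stroma and blood markers lay between 16.34 and 120.1 CPM, and HBB and COL1A2 were at 0 in several groups. That sum was lower with STM2457 in Kelly at 6 days (31.0 to 33.51 against 41.7 to 53.6 CPM; COL1A1 was called lower there at -0.996) and in the xenograft (46.09 to 46.16 against 66.27 to 88.56 CPM). In NGP COL3A1 was called higher (1.34). The part of these markers in the results below was not tested.

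Of the 10 genes, 6 had a promoter in the RefSeq table of GRCh38.p14 (PHGDH, PSAT1, MTHFD2, ASNS, ALDH18A1 and CTH), which spans 250 bases before to 50 bases after a start site. The motif TGATGNAA, the core of the element bound by ATF4 with C/EBP proteins, and the E-box CACGTG, bound by MYC family proteins and its own reverse complement, were searched on both strands. TGATGNAA was found in 1 of these 6 genes, ASNS, at positions -68 to -61 from one of its 2 listed starts, and in 3.62% of all 35116 promoters. CACGTG was found in 1 of the 6, ALDH18A1, at positions -136 to -131, and in 7.26% of all promoters. Within the span searched PHGDH, PSAT1, MTHFD2 and CTH had neither motif, and sequence outside it was not searched. The 2 stretches below are shown because they hold the only matches. Each runs 5′ to 3′ up to the start site, on the minus strand, with the motif in capitals (ASNS, chr7:97872409-97872528; ALDH18A1, chr10:95656712-95656862).
ASNS: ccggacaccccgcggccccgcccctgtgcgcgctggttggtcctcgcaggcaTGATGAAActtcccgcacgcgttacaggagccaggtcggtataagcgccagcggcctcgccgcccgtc
ALDH18A1: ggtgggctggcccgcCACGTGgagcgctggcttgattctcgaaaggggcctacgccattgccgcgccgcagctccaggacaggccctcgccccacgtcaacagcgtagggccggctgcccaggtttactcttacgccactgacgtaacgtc
A match of letters is a description of the promoter and not a measured binding site.

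Without the inhibitor PYCR1 and PHGDH led the list in Kelly cells, and CTH and ALDH1L2 were the lowest in all 4 experiments. Levels of different genes were compared per kilobase of all annotated exons (RPKM). In Kelly cells at 6 days PYCR1 stood highest at 201 ± 2.69 RPKM, followed by PHGDH at 62.6 ± 3.16, SHMT2 at 45.4 ± 0.267 and MTHFD2 at 33.7 ± 1.46 (SD, n = 3). ASNS (24.1 ± 0.611) and PSAT1 (23.9 ± 0.711) followed with overlapping ranges, as did PSPH (16.1 ± 1.54) and ALDH18A1 (15.2 ± 1.04). ALDH1L2 at 1.75 ± 0.178 and CTH at 1.58 ± 0.497 RPKM overlapped as well (SD, n = 3). The first place depended on the length used. The deposited exons of PHGDH cover 9217 bases, while its canonical transcript has 1866, and per kilobase of canonical transcript PHGDH stood above PYCR1 in Kelly at 6 days, at 309 ± 15.6 against 256 ± 3.42 (SD, n = 3).

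PYCR1 was first per kilobase of exons in the other experiments too, with 97.7 ± 5.30 RPKM in Kelly at 1 day, 84.3 ± 22.9 in NGP (SD, n = 3) and 88.9 ± 2.41 in the xenograft (SD, n = 2). In NGP its range overlapped that of SHMT2, which averaged 72.8 ± 16.1 RPKM (SD, n = 3). ALDH18A1 came next after PHGDH in Kelly at 1 day at 51.1 ± 3.23 RPKM, a range that overlapped SHMT2, and ALDH1L2 was last in the xenograft at 0.0774 ± 0.0749 RPKM (SD, n = 2). With the canonical lengths PHGDH was first in all 4 experiments.

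The DMSO inputs of the experiments were compared to see how the levels differ without treatment. These inputs also served in the contrast that chose the genes, and the experiment and any batch cannot be told apart, so all 3 comparisons describe sets of libraries. The p-values given for the 10 genes are not independent of that choice. Many genes differed: edgeR's quasi-likelihood test called 60.8% of genes between NGP and Kelly at 6 days, 79.1% between Kelly at 6 days and 1 day, and 40.8% between the xenograft and Kelly at 6 days. Of the list 8, 6 and 7 of 10 were called (for the Kelly times 8 with libraries scaled by their totals alone), and nothing particular to the list is read from these counts.

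In tumours 7 of the 10 genes were lower than in cultured Kelly cells at 6 days and none was called higher. ALDH1L2 had 14.73, 16.9 and 18.06 CPM in culture and 0.2325 and 1.238 CPM in the DMSO tumours, with a log2 difference of -4.22 (SE 0.445, edgeR adjusted p 0.000184). The ASNS level was 119.4, 119.8 and 114.4 CPM in culture and 18.6 and 17.6 CPM in tumours, a log2 difference of -2.65 (SE 0.108, edgeR adjusted p 2.74e-06). In both genes the culture and tumour libraries lay far apart. PSAT1 differed by -1.79 (SE 0.145), MTHFD2 by -1.27 (SE 0.130), PHGDH by -1.18 (SE 0.0686), PYCR1 by -1.12 (SE 0.0580) and PSPH by -1.05 (SE 0.176), with edgeR adjusted p-values from 6.68e-06 to 0.00196. SHMT2 did not pass, with 208 ± 1.22 CPM in culture (SD, n = 3) and 211 ± 0.555 CPM in tumours (SD, n = 2). ALDH18A1 was at the threshold, with a log2 difference of -0.33 and an edgeR adjusted p of 0.0501, and it was called when xenograft replicate 1 (-0.36) or 2 (-0.32) was left out, with no filter (-0.36) and by library totals (-0.39). CTH was called only without xenograft replicate 1 (-1.43).

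NGP and Kelly cells at 6 days differed in both directions. PYCR1 (log2 -1.45, SE 0.144), ASNS (-1.04, SE 0.0952), PHGDH (-0.78, SE 0.0853), MTHFD2 (-0.53, SE 0.103) and PSPH (-0.50, SE 0.136) were lower in NGP. PSAT1 (0.75, SE 0.165), ALDH18A1 (0.53, SE 0.106) and SHMT2 (0.48, SE 0.129) were higher, and all 8 had edgeR adjusted p-values of at most 0.00881. The PSPH call was lost when libraries were scaled by their totals alone (-0.30, adjusted p 0.0936). ALDH1L2 was called only without NGP replicate 1 (-0.60).

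The proline enzymes moved in opposite directions between the Kelly time points. PYCR1, the last enzyme of proline synthesis, had 282.2, 297.0 and 266.4 CPM in DMSO cells at 1 day and 588.3, 572.8 and 581.1 CPM at 6 days, a log2 difference of 1.41 (SE 0.0521, edgeR adjusted p 5.21e-17). ALDH18A1, the first enzyme, had 204.0, 179.8 and 192.0 CPM at 1 day and 61.23, 56.81 and 53.45 CPM at 6 days, a log2 difference of -1.38 (SE 0.0685, edgeR adjusted p 1.10e-14). Both genes kept their direction and call with libraries scaled by their totals alone, an alternative added after the data were seen, under which the all-gene median was -0.42 and not -0.058. ASNS lost its call under it. With means of 117 CPM at 1 day and 118 at 6 days, it had a log2 value of 0.38 (edgeR adjusted p 3.07e-06) in the main scaling and 0.011 (adjusted p 0.865) by totals. PHGDH (0.51, SE 0.0504), PSPH (0.76, SE 0.0914) and SHMT2 (0.22, SE 0.0516) were also called higher at 6 days. By totals PHGDH and PSPH stayed called higher, and SHMT2 turned to -0.15, as MTHFD2 (-0.29), PSAT1 (-0.33) and ALDH1L2 (-0.30) also fell below 0 and were called lower.

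**Figure D1:**
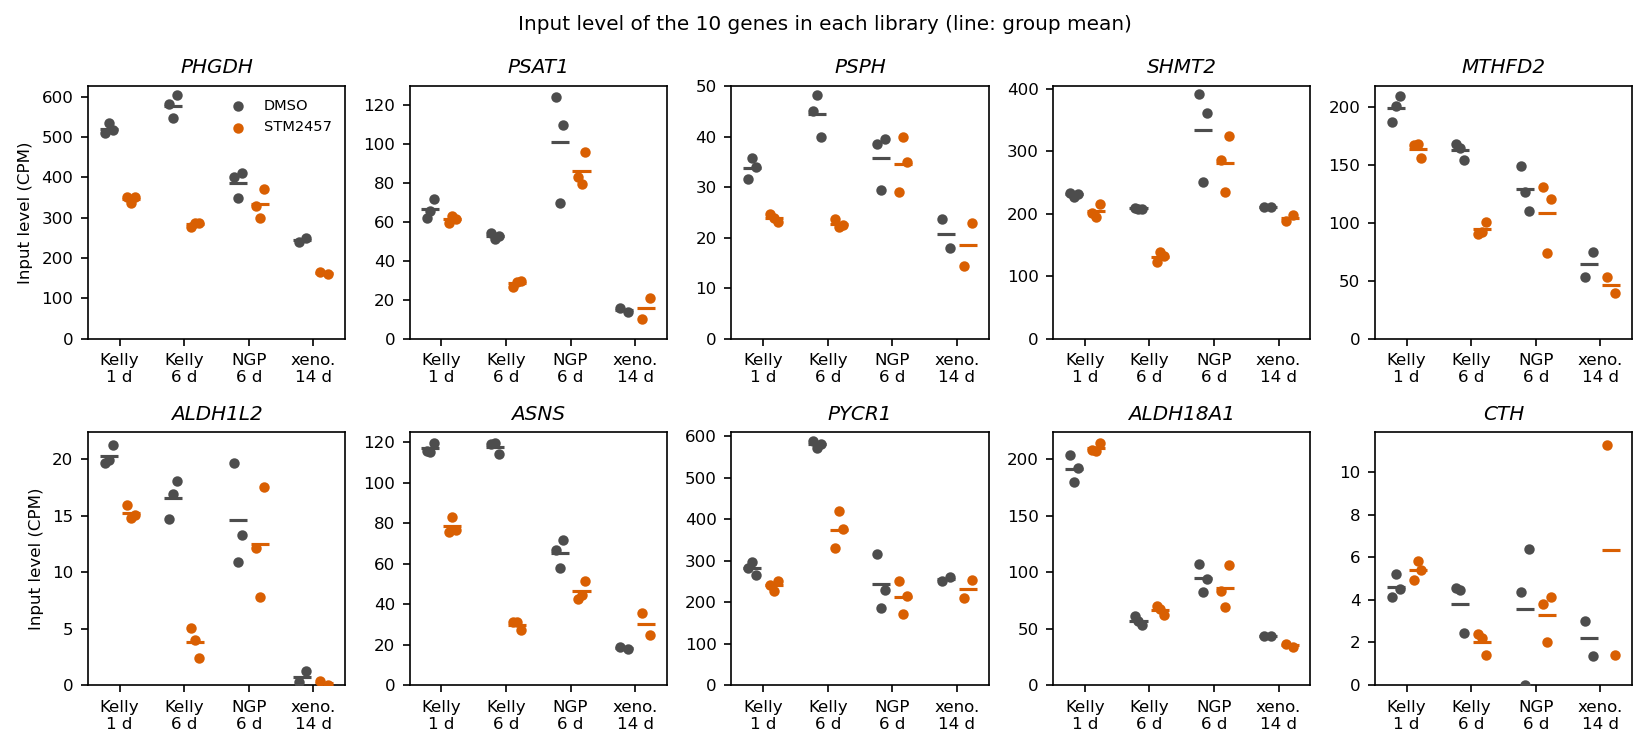
Input level in CPM (vertical axes from 0, a scale of its own per gene) of the 10 genes in every input library, by experiment, with DMSO in grey and STM2457 in orange and a line at the group mean (3 libraries per group, 2 in the xenograft). PHGDH and ASNS lie lower with STM2457 in each library of both Kelly culture experiments, and ALDH18A1 lies higher there.

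STM2457 was followed by lower input levels of most of these enzymes in Kelly cells. At 1 day 7 of the 10 genes were called, all lower, where 17.5% of all genes tested were called in either direction. With all inputs in 1 fit, 2 of the 7 stayed called at 1 day (PHGDH and ASNS), and MTHFD2, PSPH, SHMT2, ALDH1L2 and PYCR1 did not. That fit called 26 of 14224 genes at 1 day. At 6 days 9 of the 10 were called lower, where 26.6% of all genes were called. Since this contrast chose the genes, the counts are given without a reading. The median log2 change of the list was -0.28 at 1 day and -0.97 at 6 days, and that of all genes was 0.0074 and -0.0045. In bulk samples fewer cells that express a gene and less RNA per cell cannot be told apart.

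PHGDH (chromosome 1, 119648411 to 119744226, GRCh38, plus strand), the entry enzyme of serine synthesis, had 510.6, 533.9 and 517.8 CPM with DMSO and 350.8, 335.5 and 352.0 CPM with STM2457 at 1 day. At 6 days it had 581.2, 546.3 and 604.1 CPM with DMSO and 275.8, 287.6 and 286.4 CPM with STM2457. The groups did not overlap at either time, and the log2 changes were -0.61 (SE 0.0434) and -1.14 (SE 0.0627). PSAT1 (chromosome 9, 78297125 to 78330093, plus strand), the aminotransferase of the pathway, was lower at 6 days only: 66.4 ± 5.02 and 61.3 ± 1.76 CPM at 1 day overlapped, and 52.6 ± 1.57 fell to 28.4 ± 1.70 CPM at 6 days (SD, n = 3; log2 -1.01, SE 0.0860). PSPH (chromosome 7, 56011051 to 56051604, minus strand), the phosphatase that yields serine, fell at both times. It went from 33.8 ± 2.05 to 23.9 ± 0.819 CPM at 1 day (log2 -0.52, SE 0.0855) and, at 6 days, from 44.4 ± 4.25 to 22.7 ± 0.834 CPM (SD, n = 3; log2 -1.07, SE 0.0986). Annotated pseudogenes are named after PSAT1 (4), PSPH (1), MTHFD2 (7) and ASNS (4), and fragments they share with their parent gene could be placed on either.

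The mitochondrial folate enzymes differed in the size of their change. SHMT2 (chromosome 12, 57229573 to 57234935, plus strand), which splits serine into glycine and a folate-bound carbon, fell from 231 ± 2.94 to 204 ± 10.6 CPM at 1 day (log2 -0.20, SE 0.0496) and, at 6 days, from 208 ± 1.22 to 131 ± 7.59 CPM (SD, n = 3; log2 -0.78, SE 0.0616). Its 1 day call was lost without STM2457 replicate 1 (-0.20) or 2 (-0.17). MTHFD2 (chromosome 2, 74198610 to 74217565, plus strand), a folate dehydrogenase, fell from 199 ± 11.3 to 164 ± 6.47 CPM at 1 day (log2 -0.31, SE 0.0517) and, at 6 days, from 162 ± 7.04 to 94.2 ± 5.78 CPM (SD, n = 3; log2 -0.90, SE 0.0645). Of its exon bases 33.6% are shared with SLC4A5 or AC006030.1, and fragments that overlap both genes were not counted. ALDH1L2 (chromosome 12, 105019784 to 105107643, minus strand), which oxidises formyl-folate, had 19.71, 19.96 and 21.31 CPM with DMSO and 15.97, 14.77 and 15.04 with STM2457 at 1 day, a log2 change of -0.44 (SE 0.0996). At 6 days its level was 14.73, 16.9 and 18.06 CPM with DMSO and 5.092, 4.033 and 2.428 with STM2457, a log2 change of -2.08 (SE 0.193) and the largest of the list.

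ASNS (chromosome 7, 97851677 to 97872542, minus strand) had 116.0, 115.3 and 119.7 CPM with DMSO and 75.82, 83.12 and 76.67 CPM with STM2457 at 1 day (log2 -0.60, SE 0.0555). At 6 days the values were 119.4, 119.8 and 114.4 CPM with DMSO and 31.0, 31.28 and 27.4 CPM with STM2457 (log2 -2.06, SE 0.0751). Every treated library was below every control at both times, and the level at 6 days was 4.18-fold lower. The ASNS promoter holds the TGATGAAA word shown above, and a part of this word in the change was not tested.

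The proline enzymes parted. PYCR1 (chromosome 17, 81932384 to 81942412, minus strand) fell from 282 ± 15.3 to 240.4 ± 12.5 CPM at 1 day (log2 -0.25, SE 0.0543) and, at 6 days, from 581 ± 7.76 to 375 ± 44.9 CPM (SD, n = 3; log2 -0.74, SE 0.0747), and 14.1% of its exon bases are shared with MYADML2. ALDH18A1 (chromosome 10, 95605941 to 95656711, minus strand) was the one gene with no fall in Kelly cells. It had 204.0, 179.8 and 192.0 CPM with DMSO and 208.3, 207.1 and 214.8 CPM with STM2457 at 1 day, and 61.23, 56.81 and 53.45 against 70.24, 67.42 and 62.09 CPM at 6 days. All treated libraries were above all controls at both times, but the log2 changes of 0.10 (SE 0.0517) and 0.12 (SE 0.0807) were not called, except at 1 day without DMSO replicate 1 (0.16). CTH (chromosome 1, 70411218 to 70439851, plus strand) was low, with 4.128, 5.219 and 4.518 CPM and then 4.932, 5.833 and 5.402 CPM at 1 day, a log2 change of 0.20 (SE 0.175) that was not called. At 6 days 4.551, 4.46 and 2.429 CPM with DMSO stood against 2.406, 2.223 and 1.388 CPM with STM2457 (log2 -0.93, SE 0.309), and this call was lost without DMSO replicate 1 (-0.79) or 2 (-0.81) and without STM2457 replicate 2 (-0.96) or 3 (-0.81), and with all inputs in 1 fit (-0.95).

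**Figure D2:**
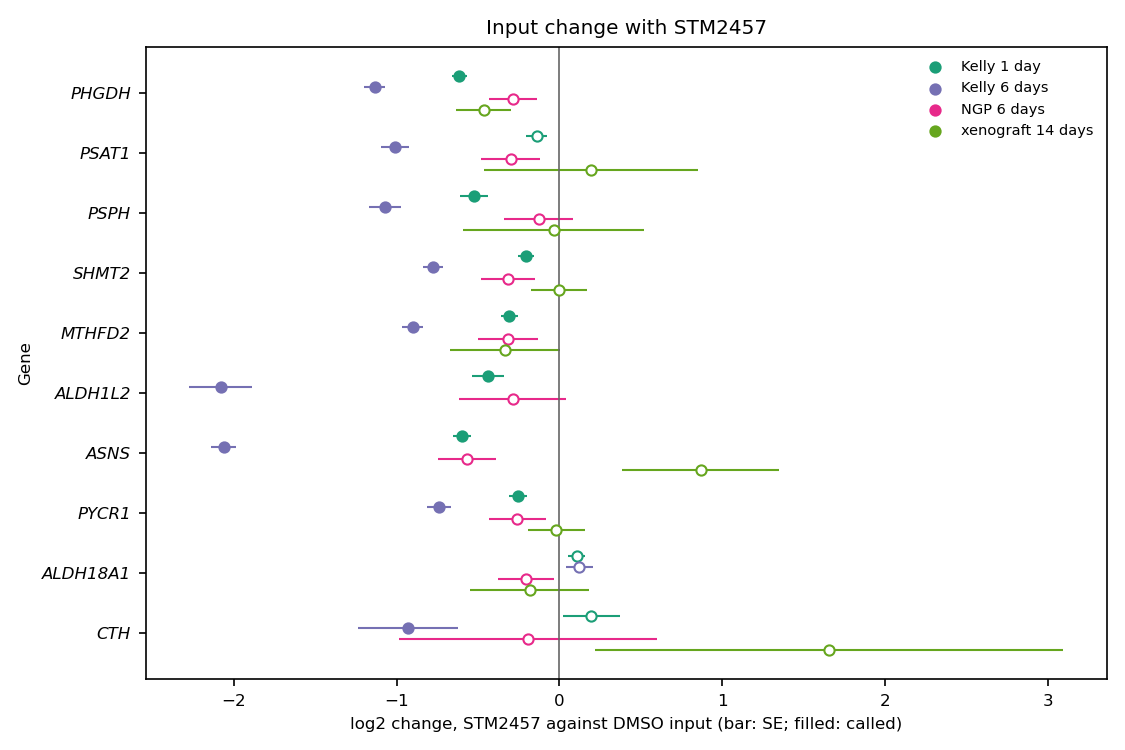
Log2 change of the input level, STM2457 against DMSO (horizontal axis), for the 10 genes in the 4 experiments, with bars of 1 SE and filled points for called changes. At 6 days in Kelly cells 9 genes lie between -2.08 and -0.74 and ALDH18A1 at 0.12, while no point of NGP or of the xenograft is filled.

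In NGP cells edgeR called none of the 10 genes, where 4.23% of all genes were called. All 10 log2 changes lay below 0, from -0.57 to -0.13, with a median of -0.29 against 0.010 for all genes, and 1 gene had an unadjusted p under 0.05. That gene was ASNS, with 66.69, 58.01 and 71.52 CPM with DMSO and 42.74, 44.63 and 51.67 CPM with STM2457 (log2 -0.57, SE 0.180). Its groups did not overlap, a trait that was not counted over all genes. DESeq2, the replicate block and the fit of all inputs called ASNS. These settings called 749, 870 and 1266 genes in NGP, against 520 in the main fit. The fit of all inputs also called PHGDH (-0.29). PHGDH had 386 ± 32.6 and 333 ± 35.8 CPM and SHMT2 334 ± 73.9 and 282 ± 44.4 CPM (SD, n = 3), and in both genes the groups overlapped. One NGP DMSO input held no CTH count.

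In the xenograft 9 of the 10 genes had enough counts for the fit, and edgeR called none, where 0.0% of all genes were called. Over all genes 968 passed an unadjusted p of 0.05 and 120 were called by DESeq2; of the 9 genes these were 1 and 0. With all inputs in 1 fit PHGDH (-0.49) and ASNS (0.87) were called, where 2552 of 14224 genes were called. PHGDH had 239.7 and 248.9 CPM with DMSO and 164.6 and 159.5 CPM with STM2457 (log2 -0.47, SE 0.169). ASNS had 18.6 and 17.6 CPM with DMSO and 35.74 and 24.71 CPM with STM2457 (log2 0.87, SE 0.481), so it was higher in both treated tumours. For ALDH18A1 43.72 and 43.45 CPM stood against 36.68 and 33.57 CPM (log2 -0.18, SE 0.363). The CTH value of 1.66 (SE 1.44) rested on treated replicate 1, which had 11.29 CPM against 1.399 in replicate 2, and was -0.50 without it. Without treated replicate 2 PSAT1 went from 0.20 to -0.44, and without treated replicate 1 ASNS was at 0.58. ALDH1L2, which the filter left out, had 0.2325 and 1.238 CPM with DMSO and 0.3135 and 0.0 with STM2457.

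Other genes of these pathways were counted from lists that were set up with earlier results known. Of 19 further serine and folate genes 17 were tested, and 3 were called at 1 day in Kelly cells, all lower, where 17.5% of all genes were called (among them MTHFD1 and SFXN1, -0.32 each). At 6 days, where 26.6% of all genes were called, 1 was lower (MTHFD1L -0.62, the mitochondrial formate enzyme) and 2 were higher (among them MTR, 0.40). Among 8 proline and glutamate genes, ALDH4A1 (-0.30) was lower and GLUL (0.28) higher at 1 day. At 6 days PRODH, which breaks proline down (-1.37), and PYCR3 (-0.55) were among 3 called lower and GLUL (0.26) was higher. GOT1 (-0.65) and ASRGL1 (-0.44), of 3 tested asparagine and aspartate genes, were lower at 6 days. Of 6 transsulfuration and glutathione genes CHAC1, which breaks down glutathione, was lower at 1 day (-0.76, SE 0.153) and had the largest change of all these lists at 6 days (-3.93, SE 0.119). CBS, the enzyme before CTH, was lower at 1 day (-0.34) and 6 days (-0.33) and MPST was higher (0.39 and 0.46). None of these lists had a called gene in NGP, where 4.23% of all genes were called, or in the xenograft, where 0.0% were. Nothing particular to the lists is read from this.

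The transcription factors named as background were measured too. ATF4 was lower in Kelly cells at 1 day (log2 -0.31, SE 0.0425) and at 6 days (-0.78, SE 0.0606). DDIT3 was lower by -0.54 (SE 0.156) and -1.61 (SE 0.122), and TRIB3, an ATF4 target, was at -1.29 (SE 0.107) and ATF3 at -1.54 (SE 0.0996) at 6 days. MYCN was called higher at 6 days, at 0.24 (SE 0.0698). No regulator was called in NGP or the xenograft, where 4.23% and 0.0% of all genes were called. These values come from the same libraries and contrasts and are a description.

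Over the 22 inputs the genes whose log2(CPM + 1) was most like the mean profile of the list, among 9331 genes, were MARS1 (Pearson r 0.945), BANF1 (0.890), TARS1 (0.889), PSMB1 (0.886) and COX7A2 (0.878). MARS1, the tRNA synthetase for methionine, averaged 414 and 307 CPM in Kelly cells at 1 day, 293 and 168 at 6 days, 277 and 276 in NGP and 109 and 71.4 in the xenograft, in each case DMSO before STM2457. Within the list, ALDH1L2 (r 0.938), PHGDH and ASNS (0.894 each) and MTHFD2 (0.881) followed the mean of the other 9 most closely, and SHMT2 (0.388), CTH (0.272) and PYCR1 (0.156) least. The points share experiments and library depth, so these correlations are descriptions with no p.

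RIP libraries show how strongly the m6A antibody pulled down a transcript relative to its input, and in culture these enzymes were mostly below the typical transcript. The ratio of RIP over input in DMSO cells is relative within a library: a gene is called depleted at a log2 ratio of at most -1 and an adjusted p under 0.05 against the average of the library. In Kelly at 1 day 8 of the 10 genes were depleted, where 29.1% of all genes were. At 6 days 9 of 10 were depleted against 27.3% of all genes, in NGP 5 of 10 against 19.0%, and in the xenograft none against 2.15%. The median log2 ratio of the list was -2.17, -3.52, -0.83 and -2.79 in the 4 experiments and that of all genes -0.067, -0.10, 0.082 and -0.16. None of the 10 was called enriched. Of all genes 3601 of 13669 were called enriched in Kelly at 1 day and 3439 of 13324 at 6 days. In NGP these were 2739 of 13088 and in the xenograft 203 of 12626. The RIP over input ratios share their DMSO inputs with the contrast that chose the genes, so they are not independent of it.

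The direction holds only relative to other mRNAs. When RIP libraries were scaled to keep the 13 mitochondrially encoded mRNAs at their input level, the median of all genes moved to 1.57, 4.77, 0.86 and 2.02, and that of the list to -0.53, 1.44, -0.13 and 0.033. Depletion calls then numbered 2 in Kelly at 1 day, where 8073 of 13669 genes were called enriched or depleted. In NGP they numbered 2 and ALDH1L2 was called enriched (1.64), where 6234 of 13088 genes were called. In Kelly at 6 days ALDH1L2 (5.18), PSAT1 (2.24), ALDH18A1 (1.90), SHMT2 (1.61) and PYCR1 (1.24) were called enriched. There 11129 of 13324 genes were called enriched or depleted. This scaling shifts all genes of a library alike.

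In the serine genes the ratio was low in both Kelly experiments. PHGDH had 62.73, 51.15 and 78.57 CPM in the DMSO RIP libraries at 1 day against 521 ± 12.0 CPM in the inputs (SD, n = 3), a log2 ratio of -2.96 (SE 0.125, edgeR adjusted p 2.00e-10). At 6 days the RIP libraries held 43.27, 30.7 and 36.0 CPM (log2 -4.02, SE 0.199, edgeR adjusted p 2.93e-08) and in NGP 98.96, 133.1 and 156.4 CPM (log2 -1.67, SE 0.194, edgeR adjusted p 1.98e-07). All RIP libraries were below all inputs. PSPH had ratios of -2.89 (SE 0.700, edgeR adjusted p 0.00251), -3.76 (SE 0.570, edgeR adjusted p 0.000118) and -0.33 (SE 0.231, edgeR adjusted p 0.231) in Kelly at 1 and 6 days and NGP. For the first of these DESeq2 gave no adjusted p (-2.88). PSAT1 had -1.60 (SE 0.214, edgeR adjusted p 1.93e-05) at 1 day and -2.37 (SE 0.934, adjusted p 0.0460) at 6 days, and the latter call was lost without any single DMSO input (-2.41 to -2.37), STM2457 input (-2.39 to -2.38) or DMSO RIP library (-2.68 to -1.97), and with the replicate block (-2.46, adjusted p 0.0581). In NGP PSAT1 stood at -0.27 (SE 0.197).

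MTHFD2 had the lowest ratio of the list in Kelly cells. At 1 day its RIP libraries held 11.88, 15.06 and 9.164 CPM against 199 ± 11.3 CPM in the inputs (SD, n = 3; log2 -3.99, SE 0.154, edgeR adjusted p 9.02e-11). At 6 days the RIP counts were 34, 5 and 81 fragments (log2 -5.46, SE 1.12, edgeR adjusted p 0.00120), and in NGP the ratio was -1.07 (SE 0.230, adjusted p 0.000400), a call lost without DMSO input replicate 1 (-0.94) or DMSO RIP replicate 1 (-0.85). SHMT2 was depleted in all culture experiments, at -2.57 (SE 0.205), -3.45 (SE 0.232) and -2.18 (SE 0.211), with edgeR adjusted p-values from 1.44e-08 to 1.55e-07. ALDH1L2 was the exception. It was not called in any experiment, with -1.15 (SE 0.798), 0.42 (SE 0.989) and 0.85 (SE 0.284) in culture. In NGP its RIP libraries, with 31.07, 24.92 and 28.79 CPM, were above all inputs (19.64, 10.92 and 13.33 CPM), and the edgeR adjusted p of 0.0142 came with a ratio under the 2-fold limit. It was called depleted at 1 day without STM2457 RIP replicate 2 (-1.16) and enriched in NGP without DMSO input replicate 1 (1.13).

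ASNS had a ratio of -2.41 (SE 0.181, edgeR adjusted p 6.58e-08) in Kelly at 1 day and of -3.14 (SE 1.06, adjusted p 0.0228) at 6 days, where the RIP libraries held 9.041, 20.14 and 12.63 CPM. For the 6 day ratio DESeq2 gave no adjusted p (-3.28), and the call was lost without DMSO RIP replicate 1 (-2.93) or 3 (-2.97). In NGP ASNS stood at -0.63 (SE 0.240), short of the 2-fold limit. PYCR1 was depleted in all 3 culture experiments, at -1.93 (SE 0.127), -3.58 (SE 0.297) and -2.47 (SE 0.224), with edgeR adjusted p-values from 5.55e-09 to 7.33e-07. ALDH18A1 had -1.58 (SE 0.121, edgeR adjusted p 7.94e-08), -2.80 (SE 0.592, adjusted p 0.00148) and -1.04 (SE 0.204, adjusted p 0.000154), of which the NGP value lay near the 2-fold limit and fell short of it without DMSO RIP replicate 1 (-0.89), DMSO input replicate 1 (-0.93) or 3 (-0.99), or STM2457 input replicate 1 or 3 (-0.998 each). CTH was at -1.21 (SE 0.662, adjusted p 0.125) at 1 day. At 6 days its ratio of -4.65 (SE 1.22, edgeR adjusted p 0.00600) rested on RIP counts of 0, 4 and 1, and in NGP it was 0.060 (SE 0.717).

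**Figure D3:**
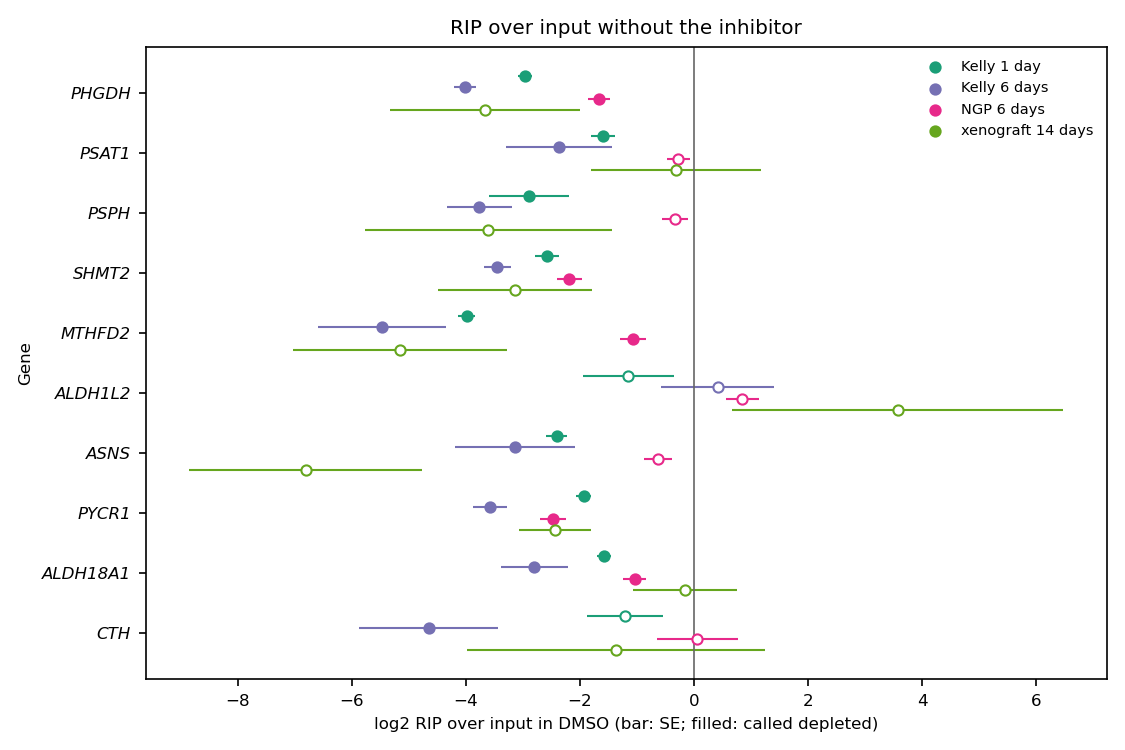
Log2 ratio of RIP over input in the DMSO groups (horizontal axis) for the 10 genes in the 4 experiments, with bars of 1 SE and filled points for genes called depleted. In Kelly cells the points lie between -5.46 and 0.42, SHMT2 and PYCR1 are filled in all 3 culture experiments, and the xenograft bars are the widest.

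In the xenograft the RIP libraries of a gene were often present in one tumour and near 0 in the other, and the ratios carried standard errors from 0.631 to 2.90. PHGDH had 476 and 2 fragments in the DMSO RIP libraries and SHMT2 had 32 and 426. MTHFD2 had 44 and 0, ASNS 1 and 2, PSAT1 166 and 98, and PYCR1 353 and 622. The log2 ratios ran from -6.81 in ASNS to 3.57 in ALDH1L2, and edgeR called none of the 10, with 4 at an unadjusted p under 0.05. DESeq2 called 5 of them depleted: PHGDH, MTHFD2, ASNS, SHMT2 and PYCR1. Over all 12626 genes DESeq2 called 2199 enriched or depleted, and edgeR 474.

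The RIP ratios of the neighbouring pathways stand beside 29.1%, 27.3% and 19.0% of all genes depleted in Kelly at 1 and 6 days and NGP. Called enriched there were 3601 of 13669, 3439 of 13324 and 2739 of 13088 genes. Of 17 tested serine and folate genes 13 were called depleted and 2 enriched (among them SRR at 1.90) in Kelly at 1 day, 10 and 2 at 6 days, and 6 and 3 of 18 in NGP. In Kelly at 1 day AMT of the glycine cleavage system had a ratio of -7.76 (SE 1.45, edgeR adjusted p 0.00123), and GLDC, of the same system, had -3.75 (SE 0.535, edgeR adjusted p 3.33e-05). Of the proline and glutamate genes 5 of 7, 5 of 8 and 4 of 8 were depleted in the 3 culture experiments and none was enriched. Of 8 regulators MYCN (2.23), DDIT3 (1.72) and TRIB3 (1.60) were called enriched and EIF2AK4 (-1.14) depleted in Kelly at 1 day.

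Across all transcripts the RIP ratio went with the density of exon junctions, and 9 of the 10 enzymes lay above the median density. PYCR1 did so narrowly, with 2.64 junctions per kilobase against a median of 2.62. By the canonical transcripts of GENCODE 44, the median log2 ratio in Kelly DMSO cells at 1 day was 1.47 in the lowest of 4 equal bins of junctions per kilobase over 13362 genes, then 0.31, -0.43 and -1.47 in the highest. Of the 10 genes 5 were in the highest bin (PHGDH with 5.90 junctions per kilobase, CTH with 5.26, SHMT2 with 5.10, ALDH18A1 with 5.07 and ASNS with 5.03), 4 in the one below and 1 in the bin below that. That 1 was MTHFD2, which had the lowest ratio of the list. It has 1.59 junctions per kilobase, a longest exon of 3487 bases and a 3′ UTR of 3326 bases. Fragments of MTHFD2 that also overlap SLC4A5 or AC006030.1, which share 33.6% of its exon bases, were not counted. Their part in its ratio was not tested. The sequence GGAC, the core of the usual m6A context, occurred 1.59 times per kilobase in MTHFD2 and 1.81 times in PSAT1, against a median of 3.75 over all genes, but 6.97 times in PHGDH and 8.37 times in PYCR1. Over all genes the ratio also went with the length of the longest exon, with a median of -1.25 in the lowest bin and 0.71 in the highest. For the length of the 3′ UTR these medians were -0.81 and 0.35. Genes are not independent replicates, and no p is given for these relations. Their part in the ratios of the 10 genes was not tested.

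**Figure D4:**
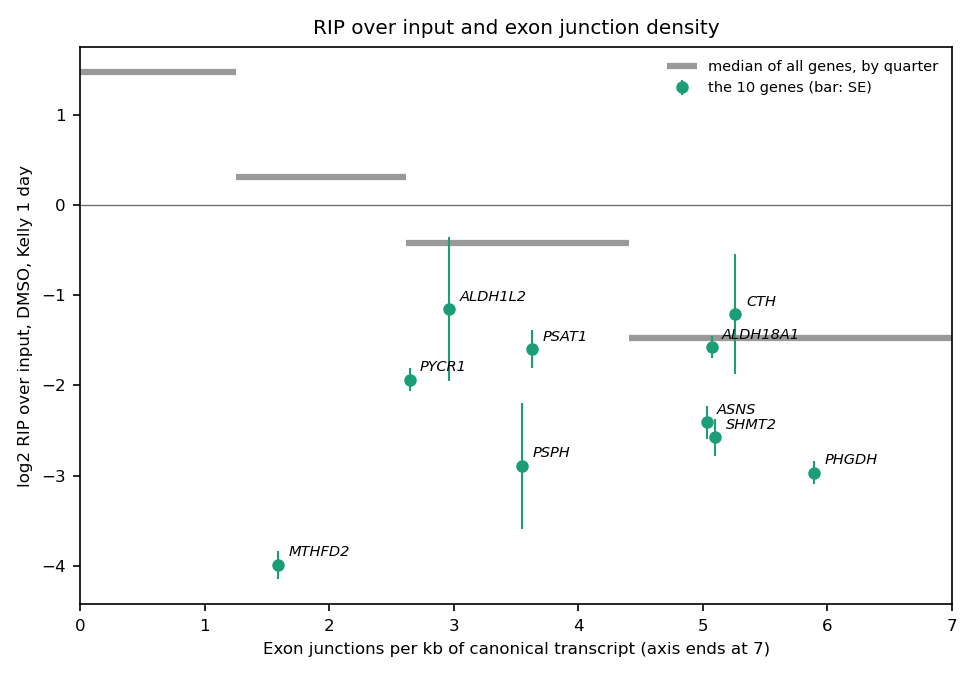
Log2 RIP over input in Kelly DMSO cells at 1 day (vertical axis, bars of 1 SE) against exon junctions per kilobase of the canonical transcript (horizontal axis), with grey lines at the median ratio of all genes in each of the 4 bins of junction density. The all-gene medians descend from 1.47 to -1.47, and MTHFD2 lies at 1.59 junctions per kilobase and a ratio of -3.99, away from the median of 0.31 of its bin. Fragments of MTHFD2 that overlap another gene were not counted.

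The change of RIP over input with STM2457 was tested with an interaction term between treatment and kind of library, which contains the input change that chose the genes. A lower input adds to this value (for PHGDH the input change was -0.61), so it is a description without p-values. In Kelly at 1 day edgeR called 4 of the 10 genes, 3 with a higher and 1 with a lower ratio, where 17.2% of all genes were called. For PHGDH the RIP libraries held 62.73, 51.15 and 78.57 CPM with DMSO and 118.0, 125.3 and 135.8 CPM with STM2457, while its input fell, a log2 change of the ratio of 1.66 (SE 0.165). MTHFD2 went from 11.88, 15.06 and 9.164 to 21.77, 19.75 and 20.24 CPM in RIP (1.15, SE 0.196, with an input change of -0.31). Both sets of treated RIP libraries lay above all controls. ASNS went from 22.04, 22.64 and 18.72 to 31.67, 35.04 and 20.38 CPM (1.13, SE 0.245, with an input change of -0.60), with overlapping groups. CTH went from 70, 15 and 84 fragments to 3, 5 and 2 (-4.30, SE 0.991), a call lost with the replicate block (-4.06).

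The other 6 genes were not called at 1 day. SHMT2 had a value of 0.86 (SE 0.275) and was called with DESeq2 (0.94), RLE factors (0.95) and no filter (0.999), and also without DMSO RIP replicate 3 (1.15) or STM2457 RIP replicate 1 (1.06). PSAT1 had 0.62 (SE 0.296) and was called without STM2457 RIP replicate 1 (0.83). PSPH (0.73, SE 0.928) and ALDH1L2 (0.30, SE 1.12) each depended on 1 treated RIP library: PSPH counts were 54, 412 and 34 and ALDH1L2 counts 255, 8 and 461. ALDH18A1 had 0.16 (SE 0.167) and PYCR1 -0.0073 (SE 0.174). With the mitochondrial mRNA scaling the median of all genes moved from -0.028 to -1.47, and PHGDH then had 0.22, MTHFD2 -0.29 and ASNS -0.32, none of them called, so the higher ratios are relative to other mRNAs. ALDH18A1 (-1.28), PYCR1 (-1.46) and PSAT1 (-0.83) were called lower there, where 8369 of 13669 genes were called in either direction.

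Of the other lists MTHFD1 (0.86), ALDH4A1 (1.11) and GLUD1 (0.87) had a higher ratio and GOT1 (-0.92), MPST (-1.34) and MYCN (-0.27) a lower one in Kelly at 1 day, and MPST (-1.08) and TRIB3 (-1.99) a lower one at 6 days.

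In the other 3 experiments no change of the ratio was called in these genes by edgeR. In Kelly at 6 days the 10 values ran from -1.65 to 2.28, where 2.06% of all genes were called. Of the 10, 0 passed an unadjusted p of 0.05 and 0 were called by DESeq2. PSPH, with 35, 33 and 41 fragments in DMSO RIP and 8, 18 and 1 in STM2457 RIP, was called without STM2457 RIP replicate 2 (-2.71). The treated RIP libraries scattered widely, with PSAT1 at 495, 99 and 2 fragments, MTHFD2 at 360, 228 and 1 and ASNS at 33, 2 and 290. In NGP the values ran from -0.49 to 0.44 with 0.0% of all genes called (764 genes at an unadjusted p under 0.05, 0 of them in the list, and 2 genes called by DESeq2, 0 in the list). In the xenograft they ran from -7.60 to 6.59 with 0.0% called (809 at an unadjusted p under 0.05, of which 2 in the list, and 159 called by DESeq2, 0 in the list).

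**Figure D5:**
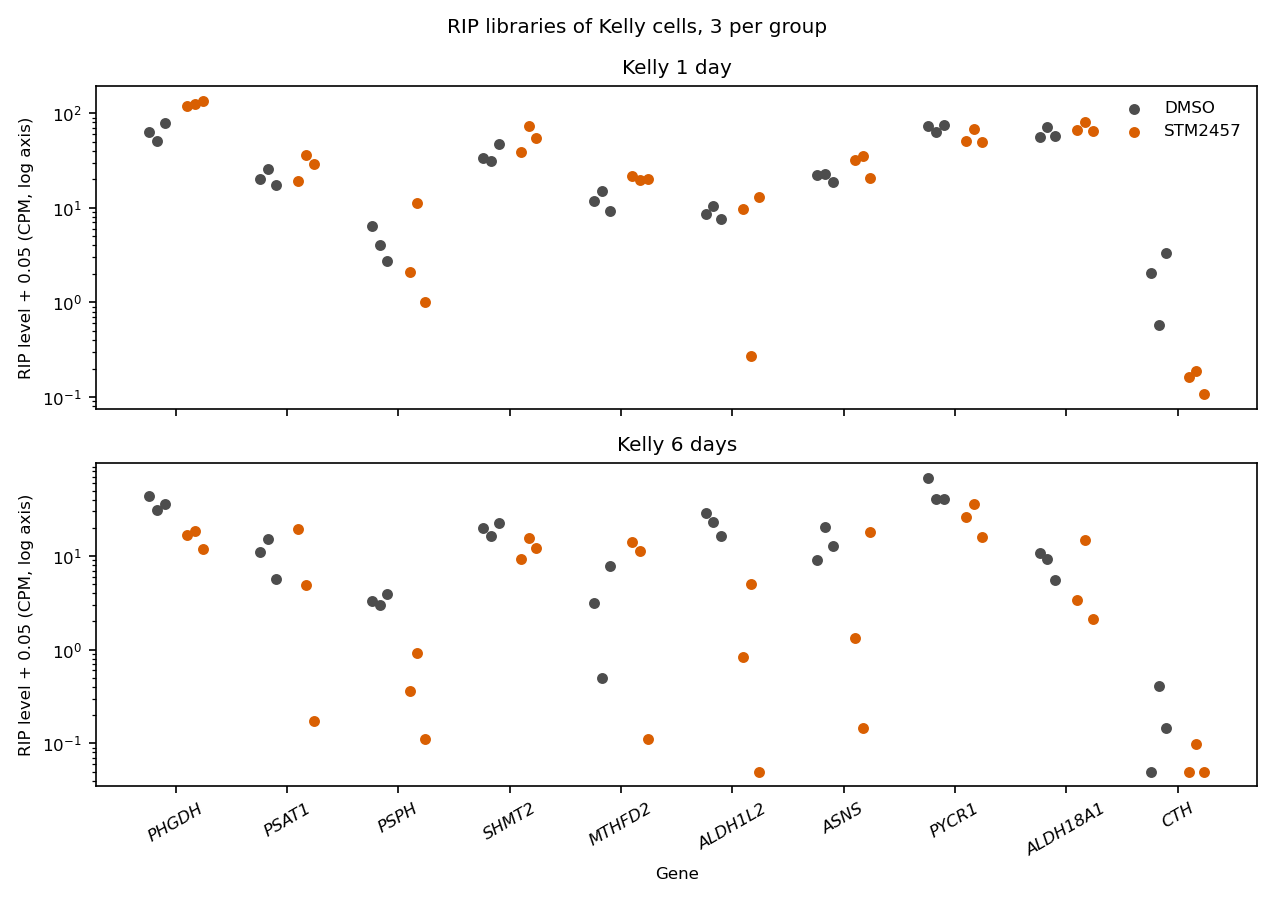
RIP level in CPM plus 0.05, on a log axis, for the 10 genes in Kelly cells at 1 day (top) and 6 days (bottom), with DMSO in grey and STM2457 in orange and 3 libraries per group. At 1 day the treated PHGDH libraries (118.0 to 135.8 CPM) lie above the controls, and at 6 days treated libraries of PSAT1, MTHFD2 and ASNS spread over more than a factor of 10.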

How the data were processed

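The authors deposited raw fragment counts per gene, 1 table for each library, made per the file headers with featureCounts 1.5.3 from exons of protein-coding genes in GENCODE 33 (GRCh38), counting read pairs, with no strand or multi-overlap option. Per the submitters' processing notes, FastQC 0.11.5, Trimmomatic 0.36, HISAT2 2.1.0 and deepTools 2.0 were used. The headers put each experiment in folders of its own (Kelly 1 day inputs and RIP libraries apart), so a batch and the experiment cannot be told apart. The spike-in RNAs are not analysed here.

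The members, the lists and the naming rule (all 10 members; of other lists at most 5 called genes; 5 like genes of at least 10 CPM) were chosen with earlier results of these data known. CPM used library totals. Tests were edgeR 4.0.16 quasi-likelihood tests in R 4.3.3 (TMM, filterByExpr with minimum count 10 and total 15, two-sided, Benjamini-Hochberg over all genes, 0.05), each experiment alone. Alternatives were RLE factors, DESeq2 1.42.0, no filter, replicate blocks, all inputs in 1 fit, mitochondrial mRNA scaling, each library left out, and, added after the data were seen, library totals and canonical lengths. Where an arm kept 1 library, it was assumed to vary like the others. The fits were tested on simulated data. Replicates differed by more than sampling noise in all 40 pairs (lowest chi-square per degree of freedom 2.73). Some genes of the lists are counted but not reported by name here.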

Additional observations from a re-analysis of the deposited data

Results flagged for a closer look

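In CPM the treated ASNS inputs lay below the controls in culture and above them in the xenograft. Every treated library was below every control in Kelly at 1 day (log2 -0.60), Kelly at 6 days (-2.06) and NGP (-0.57), and every treated tumour was above both control tumours in the xenograft (0.87). For ALDH18A1 all treated libraries were above all controls in CPM in Kelly at 1 day (0.10, SE 0.0517) and 6 days (0.12, SE 0.0807). In the xenograft they were below them (-0.18, SE 0.363). None of these ALDH18A1 changes was called in the main fits. Groups apart in CPM can come with no change in the fit: SHMT2 averaged 193 CPM in treated and 211 CPM in control tumours, without overlap, at a log2 change of -0.0036. With all inputs in 1 fit the ASNS value in the xenograft (0.87) was called, where 2552 of 14224 genes were called. With each experiment alone ASNS was not called in the xenograft or in NGP. How many of all genes had groups apart in this way was not counted. The differences of ASNS and ALDH18A1 between experiments were not tested, and the xenograft values rest on 2 libraries per group.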

How the results depend on the processing

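Of 75 counts of members called under other settings 63 stayed within 1.5 times the main count. The exceptions were the mitochondrial mRNA scaling for RIP over input (2 in Kelly at 1 day, 5 at 6 days, 3 in NGP) and for its change at 6 days (3); DESeq2 (5), no low-count filter (5) and the replicate block (3) for RIP over input in the xenograft; DESeq2 (1) and the block (1) for the NGP input change; and all inputs in 1 fit for the input change in Kelly at 1 day (2), NGP (2) and the xenograft (2). With 1 library left out, counts ran from 0 to 1 for the change of RIP over input in Kelly at 6 days, from 3 to 5 for RIP over input in NGP and from 0 to 2 in the xenograft. Whether the replicate numbers pair the samples is not known. Deviations of same-numbered libraries correlated at -0.34 to 0.24. For STM2457 input and RIP libraries in Kelly at 6 days the range was 0.019 to 0.244 with the same number and -0.189 to 0.038 otherwise. For DMSO and STM2457 inputs in Kelly at 1 day it was -0.343 to -0.013 and -0.259 to 0.329. The block reversed ALDH1L2 in the change of RIP over input at 1 day (-0.49).

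Mitochondrial mRNA scaling reversed RIP over input for CTH (0.42), PSAT1 (0.038), ALDH18A1 (0.054) and ALDH1L2 (0.48) in Kelly at 1 day. At 6 days it reversed PHGDH (0.93), MTHFD2 (0.027), PSPH (1.28), ASNS (1.75), PSAT1 (2.24), ALDH18A1 (1.90), SHMT2 (1.61) and PYCR1 (1.24). In NGP these were PSPH (0.38), ASNS (0.060) and PSAT1 (0.48), and in the xenograft CTH (1.58), PSAT1 (1.93), ALDH18A1 (1.94) and PYCR1 (0.23). For the change of RIP over input at 1 day they were MTHFD2 (-0.29), PSPH (-0.78), ASNS (-0.32), PSAT1 (-0.83), ALDH18A1 (-1.28), SHMT2 (-0.59) and ALDH1L2 (-1.12). This scaling multiplies all genes of a library alike. PYCR1 there, at -0.0073, was reversed by RLE factors (0.081), DESeq2 (0.081) and no filter (0.13). Between Kelly times, library totals reversed CTH (-0.28), MTHFD2 (-0.29), PSAT1 (-0.33), SHMT2 (-0.15) and ALDH1L2 (-0.30), and no filter reversed PSAT1 (-0.0087).

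With 1 library left out, signs also turned, all in values not called, for the change of RIP over input at 1 day of PSPH (-0.97 to 1.22), ALDH1L2 (-0.33 to 0.87) and PYCR1 (-0.18 to 0.14), for RIP over input of CTH in NGP (-0.46 to 0.79) and of ALDH18A1 in the xenograft (-0.61 to 0.18). The same held for the DMSO differences of CTH between NGP and Kelly (-0.86 to 0.30), and CTH (-0.058 to 0.32), PSAT1 (-0.005 to 0.091) and ALDH1L2 (-0.0032 to 0.14) between Kelly times. For the input change it held for CTH in NGP (-0.73 to 0.51) and, in the xenograft, for CTH (-0.50 to 2.48), PSPH (-0.41 to 0.27), PSAT1 (-0.44 to 0.65), SHMT2 (-0.055 to 0.038) and PYCR1 (-0.17 to 0.11). The cause of these changes was not tested. CTH had at most 4 RIP fragments per DMSO library in Kelly at 6 days.

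Counts over all genes differed by over 1.5 times in these settings. With all inputs in 1 fit, 26, 791, 1266 and 2552 input changes were called in Kelly at 1 and 6 days, NGP and the xenograft, against 2315, 3396, 520 and 0. The block gave 870 in NGP and 65 in the xenograft, where DESeq2 gave 120 and no filter 100. For RIP over input in the xenograft (474) they gave 741, 2199 and 1207, and the mitochondrial scaling 0 there and 11129 in Kelly at 6 days (7074). For the change of RIP over input the mitochondrial scaling gave 8369 at 1 day (2345) and 3848 at 6 days (275), where DESeq2 gave 907 and the block 0. In NGP (0) DESeq2 gave 2 and no filter 11, and in the xenograft (0) they gave 159 and 22 and the block 1. With 1 library left out, the input change gave 1249 to 2426 calls in Kelly at 1 day, 128 to 459 in NGP and 13 to 1933 in the xenograft. RIP over input gave 0 to 2187 in the xenograft, and its change 0 to 1437 in Kelly at 6 days, 0 to 67 in the xenograft and 1594 to 3350 in Kelly at 1 day. The DMSO difference of the xenograft from Kelly gave 3360 to 7396.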
